A study of Mus musculus with 6 samples.

Results

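The genes described here belong to the integrated stress response, to the set of genes induced by the transcription factor ATF4, to serine and one-carbon synthesis, and to amino acid transport. They were the rows of the deposited gene table whose gene name was among 37 chosen names, and all 37 were found among the 54660 gene rows. For Ddit3 a further row of the same name, a short coding annotation inside the gene, had no counts in any library and was set aside. Of the 37 genes, 35 passed the filter on low counts and were tested.

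In the integrated stress response, kinases that sense amino acid shortage, haem shortage, viral RNA or misfolded protein phosphorylate the translation factor eIF2, which slows most translation and favours that of Atf4. ATF4 then raises the transcription of genes for amino acid synthesis and import and of feedback regulators, and a phosphatase complex reverses the phosphorylation. Its activity is therefore set largely by translation and cannot be read from Atf4 mRNA alone. Serine made from a glycolytic intermediate by PHGDH, PSAT1 and PSPH gives up a carbon unit to folate through the SHMT enzymes, and macrophages activated by lipopolysaccharide (LPS) are known to draw on this route for nucleotides and methyl groups.

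The libraries came from macrophages differentiated in culture from the bone marrow of C57BL/6 mice aged 6 to 8 weeks. There were 3 libraries from Xbp1FL/FL mice, which carry floxed Xbp1 alleles and are called WT, and 3 from Xbp1M-KO mice, a knockout whose letter M the labels do not spell out, called KO. All 6 cultures received LPS for 6 h, so no untreated level was analysed here. The study's title asks about XBP1, which drives transcription in the unfolded protein response, and STING signalling in macrophages. Neither the Cre driver, nor the floxed exon, nor whether each library is its own animal is stated in the sources used here, so p-values measure the spread between libraries, which may be technical.

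Library totals lay between 31976748 and 42448058 counts, at which 3 counts equal 0.0682 to 0.096 CPM (counts scaled to a common library size, here with TMM factors). Xbp1 itself had 91.2, 88.2 and 87.5 CPM in the WT libraries and 66.3, 65.5 and 65.6 CPM in the KO libraries, so that 0.740 of the WT level remained in the gene's total count, which may include exons outside the deleted part. All 10 macrophage markers examined were tested, 6 being higher and 3 lower in KO, and their summed level was 37730 to 39210 CPM in WT and 20450 to 21120 CPM in KO, mostly from Lyz2 (29830 and 11510 CPM). Markers of other cells also moved with genotype. Beside all these marker counts, 31.5% of all genes tested were called higher in KO and 29.8% lower. All 7 tested of 11 neutrophil markers were higher in KO. Elane had 3, 1 and 4 counts in WT and 17, 12 and 27 in KO, and Prtn3 8, 5 and 5 against 14, 28 and 24. Both passed the filter on low counts only through KO, so their direction carries no weight. The summed level of all 11 was 206 to 224 CPM in WT and 294 to 309 CPM in KO. Ly6g, Mpo, Cxcr2 and Retnlg were untested, with at most 6 counts in a library. Of 9 stromal markers, 6 were lower and 1 was higher, and their summed level was 550.0 to 562 CPM in WT and 293 to 303 CPM in KO. The largest part of that sum was Acta2, with means of 347 CPM in WT and 151 CPM in KO. Dendritic cell, lymphoid and mast or erythroid markers summed to at most 7.33 CPM in any library, with Ncr1 and Fcer1a at 0. The part of these markers in the results was not tested, and in such bulk libraries fewer cells of a type and less RNA per cell cannot be told apart.

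ATF4 binds, with partners of the C/EBP family, a composite element whose core is written here as TGATGNAA. The core was searched on both strands of the RefSeq promoter windows (GRCm38.p6, 250 bases before to 50 after each transcription start). Windows were found for 32 of the 37 genes and 8 of these (25%) held the core, against 4.51% of 27025 genes with a window. The 37 names were chosen partly as genes induced by ATF4, so this share is no separate evidence of a link to ATF4. The 8 stretches of 60 bases around the core are shown as matches by sequence. They are written 5′ to 3′ on the gene's strand with the core, or its reverse complement, in capitals.
Asns, chr6:7693199-7693258, minus strand: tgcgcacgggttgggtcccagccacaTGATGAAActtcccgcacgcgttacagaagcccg
Pycr1, chr11:120643818-120643877, minus strand: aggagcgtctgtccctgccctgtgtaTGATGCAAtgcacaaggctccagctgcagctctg
Chac1, chr2:119351023-119351082, plus strand: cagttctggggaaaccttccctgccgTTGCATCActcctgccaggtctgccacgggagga
Trib3, chr2:152344013-152344072, minus strand: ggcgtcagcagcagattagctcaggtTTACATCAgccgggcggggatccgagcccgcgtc
Nupr1, chr7:126625547-126625606, minus strand: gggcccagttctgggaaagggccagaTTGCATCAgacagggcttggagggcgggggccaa
Slc1a4, chr11:20332684-20332743, minus strand: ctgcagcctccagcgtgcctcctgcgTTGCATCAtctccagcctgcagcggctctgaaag
Pck2, chr14:55540137-55540196, plus strand: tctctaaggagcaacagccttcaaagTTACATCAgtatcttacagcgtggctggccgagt
Got1, chr19:43524674-43524733, minus strand: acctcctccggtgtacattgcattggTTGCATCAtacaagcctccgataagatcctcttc
The core began between 193 bases before the start site, in Chac1, and base 15 after it, in Trib3. A match is a description of the sequence and not a bound site. Of the 8 genes 3 were called lower in KO (Asns, Nupr1 and Pycr1), 2 higher (Trib3 and Pck2) and 3 were not called (Chac1, Slc1a4 and Got1). Over all genes tested 29.8% were called lower and 31.5% higher. The calls of Pycr1 and Pck2 were lost under several alternatives, and Pck2 was at -0.04 once a trend with GC content and length was removed.

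The deletion of Xbp1 was accompanied by changes in both directions among these genes. With edgeR's quasi-likelihood test and a call at a Benjamini-Hochberg adjusted p under 0.05 over all genes tested, 13 of 35 genes were higher in KO and 11 were lower. Over all 13080 genes tested, 61.3% were called, 31.5% higher and 29.8% lower, so the 68.6% called here lay near the background. The WT and KO libraries did not overlap for 25 of the 35 genes (71.4%, against 65.9% of all genes). The median log2 fold change was 0.03, against -0.00 over all genes, 5 genes were called with a change of at least 1.5-fold (14.3%, against 23.9% of all genes) and 2 with at least 2-fold (5.71%, against 6.87%). When a change beyond 1.2-fold was required (edgeR glmTreat), 7 genes were higher and 3 lower, against 19.5% and 17.7% of all genes. The 7 were Sesn2, Mthfd1l, Slc7a6, Slc7a1, Eif2ak4, Slc3a2 and Ppp1r15b, and the 3 were Psph, Psat1 and Asns.

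**Figure D1:**
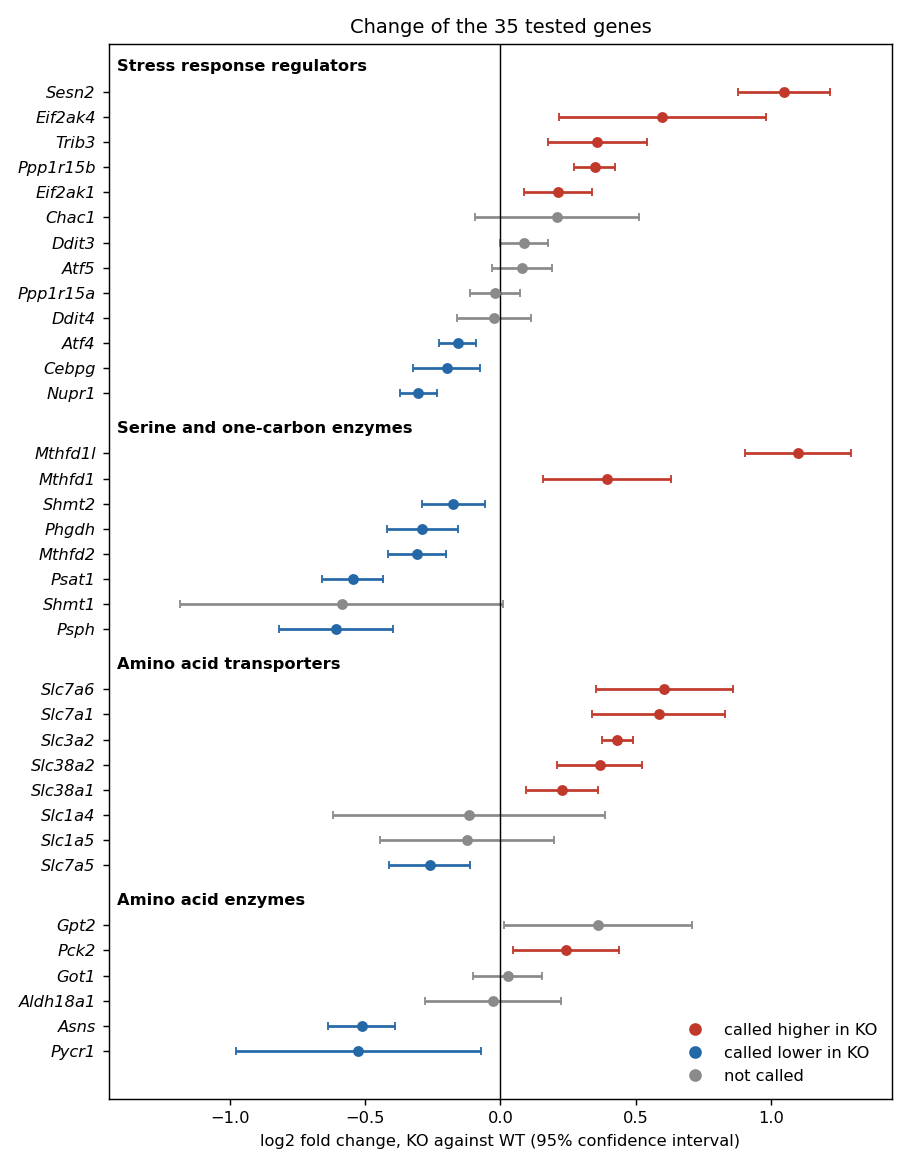
Log2 fold change of each of the 35 tested genes in KO against WT (x axis) with its 95% confidence interval, by role, coloured by call at an adjusted p under 0.05. Sesn2 and Mthfd1l lie apart at the right, at 1.05 and 1.10, and the enzymes Psph, Shmt1, Psat1, Pycr1 and Asns at the left, between -0.61 and -0.51, of which Shmt1 was not called.

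Of 13 stress response regulators 5 were higher (Sesn2, Trib3, Ppp1r15b, Eif2ak4 and Eif2ak1) and 3 lower (Atf4, Nupr1 and Cebpg), shares near the 31.5% and 29.8% of all genes. Scaled by library totals, 7 were higher and 1, Nupr1, was lower, against 39.1% and 22.6% of all genes under that scaling. Atf4 (ENSMUSG00000042406, chromosome 15, 80255184 to 80257541 on mm10) had 245, 247 and 253 CPM in WT and 222, 219 and 227 CPM in KO. Every KO library was below every WT library, a fall of 0.16 on the log2 scale (SE 0.0323, edgeR adjusted p = 4.55e-04). Scaled by library totals, the Atf4 value was -0.04 (edgeR adjusted p = 0.265). Nupr1, which encodes a small stress-induced chromatin protein, fell from 264 ± 2.89 to 214 ± 4.28 CPM (SD, n = 3 each), by 0.30 on the log2 scale. Cebpg, a C/EBP family partner of ATF4, changed by -0.20 (edgeR adjusted p = 0.00692), a call lost when scaled by library totals (-0.08) and after removal of a trend with GC content and gene length (-0.10).

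Ddit3, the gene of the pro-apoptotic factor CHOP that acts downstream of ATF4, was not called. Its levels were 70.7, 76.8 and 69.2 CPM in WT and 78.4, 76.2 and 75.7 CPM in KO, so the groups overlapped through WT replicate 2. The log2 fold change was 0.09 (95% interval -0.00 to 0.18, edgeR adjusted p = 0.089). It was called at 0.14 without WT replicate 2 (edgeR adjusted p = 0.0114), at 0.11 with no expression filter, at 0.20 when scaled by library totals and at 0.41 after removal of the GC and length trend. Exons of Ddit3 share 68 bases with Mars on the opposite strand, whose own value was 0.50 (edgeR adjusted p = 3.03e-05). No source used here says whether reads were counted by strand. Atf5, a related stress factor, was likewise not called (0.08, interval -0.03 to 0.19), but was called at 0.19 when scaled by library totals. Atf5 shares 82 exon bases with Nup62 on the opposite strand, which had 14617 counts over the libraries against 8329 for Atf5. The value of Nup62 itself was 0.49 (edgeR adjusted p = 6.46e-09).

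Sesn2 showed the largest change of the regulators. SESN2 is a leucine-binding inhibitor of the growth kinase complex mTORC1, and its gene (chromosome 4, 132492032 to 132510501) is induced by ATF4. Sesn2 had 8.16, 9.68 and 9.85 CPM in WT and 20.2, 19.1 and 18.0 CPM in KO, with no overlap. This was a rise of 1.05 on the log2 scale (SE 0.0798, edgeR adjusted p = 7.71e-09), or 0.84 with the trend removed. Trib3, a pseudokinase gene that feeds back on ATF4 and CHOP, had 7.85, 8.62 and 8.00 CPM in WT and 9.44, 11.3 and 10.6 CPM in KO, a rise of 0.36 (edgeR adjusted p = 0.00174). Chac1, which encodes a glutathione-degrading enzyme and is a marker of the same branch, was not called (0.21, interval -0.10 to 0.51).

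The phosphatase subunits that end the response differed from each other. Ppp1r15b, the constitutive subunit, had 72.8, 73.8 and 76.0 CPM in WT and 93.5 to 95.1 CPM in KO. It rose by 0.35 (SE 0.0358, edgeR adjusted p = 2.78e-07), a 1.27-fold change, and the groups were well apart. Ppp1r15a, the stress-induced subunit that answers to ATF4 and CHOP, had 52.2 ± 1.48 and 51.5 ± 2.35 CPM (-0.02, interval -0.11 to 0.07), and was called lower at -0.16 once the trend was removed (edgeR adjusted p = 0.00299). Ddit4, an mTORC1 inhibitor gene that answers to several stresses, was not called (-0.02, interval -0.16 to 0.11). The eIF2 kinase genes Eif2ak4, whose product senses uncharged tRNA, and Eif2ak1, whose product senses haem, were at 0.60 (edgeR adjusted p = 0.00852) and 0.21 (edgeR adjusted p = 0.00496). With the trend removed neither was called, at 0.36 and 0.05, and Eif2ak1 shares 487 exon bases with Aimp2 on the opposite strand (0.03).

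The 3 genes of serine synthesis, Phgdh, Psat1 and Psph, each fell. The folate enzyme genes were split, Mthfd1l and Mthfd1 being higher in KO and Mthfd2 and Shmt2 lower. Of the 8 serine and one-carbon genes together 5 were lower and 2 higher, against 29.8% and 31.5% of all genes. Psat1, the aminotransferase of the pathway (ENSMUSG00000024640, chromosome 19, 15904678 to 15947337), had 42.2, 45.2 and 48.5 CPM in WT and 31.8, 31.3 and 30.0 CPM in KO. All KO libraries lay below all WT libraries, a fall of 0.55 (SE 0.0533, edgeR adjusted p = 1.55e-07). Psph, the phosphatase of the last step, had 8.32, 7.33 and 7.48 CPM in WT and 4.87, 4.90 and 5.39 CPM in KO. This was a fall of 0.61 (SE 0.0995, edgeR adjusted p = 5.25e-05) without overlap. Psph shares 452 exon bases with Cct6a on the opposite strand, whose own value was -0.02.

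Phgdh, which encodes the first enzyme of the route, fell from 19.5 ± 1.01 to 16.0 ± 0.321 CPM, by 0.29 (edgeR adjusted p = 6.82e-04). It has 9 pseudogene copies with at least 95% identity, which together held 201 counts over the 6 libraries against 3782 for Phgdh. Shmt2, the mitochondrial serine hydroxymethyltransferase, had 26.3, 26.5 and 25.4 CPM in WT and 21.9, 23.6 and 23.7 CPM in KO. The difference was small, -0.18 (edgeR adjusted p = 0.0113), and no call remained when KO replicate 1 was left out (-0.14, edgeR adjusted p = 0.0667) or when libraries were scaled by their totals (-0.06). Its cytosolic counterpart Shmt1 was near the lower limit of the test, with 29 to 45 counts per library in WT and 25 to 34 in KO. It was not called (-0.59, interval -1.19 to 0.01), except without KO replicate 1 (-0.82, edgeR adjusted p = 0.0382). Shmt1 shares 184 exon bases with Smcr8 on the opposite strand, which had 8195 counts over the libraries against 202 for Shmt1. The value of Smcr8 itself was 0.15 (edgeR adjusted p = 0.00911).

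The mitochondrial folate enzyme genes Mthfd2 and Mthfd1l moved in opposite directions. Mthfd2, the LPS-responsive dehydrogenase that oxidises the folate-bound carbon unit, had 60.8, 53.6 and 62.0 CPM in WT and 47.4, 46.7 and 48.3 CPM in KO, a fall of 0.31 (edgeR adjusted p = 5.27e-05). Mthfd1l, which releases that unit as formate (ENSMUSG00000040675, chromosome 10, 3973118 to 4167081), had 6.08, 5.91 and 5.12 CPM in WT and 13.4, 11.5 and 12.0 CPM in KO. Its rise of 1.10 (SE 0.0925, edgeR adjusted p = 2.59e-08), or 2.14-fold, was the highest value of all 35 genes, and was 0.91 after removal of the trend. The ratio of Mthfd2 to Mthfd1l in deposited FPKM was accordingly 12.7, 11.5 and 15.4 in the WT libraries and 4.50, 5.18 and 5.12 in the KO libraries. Mthfd1, the cytosolic trifunctional enzyme gene, had a value of 0.39 (edgeR adjusted p = 0.00591), but of 0.18 and no call once the trend was removed.

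**Figure D2:**
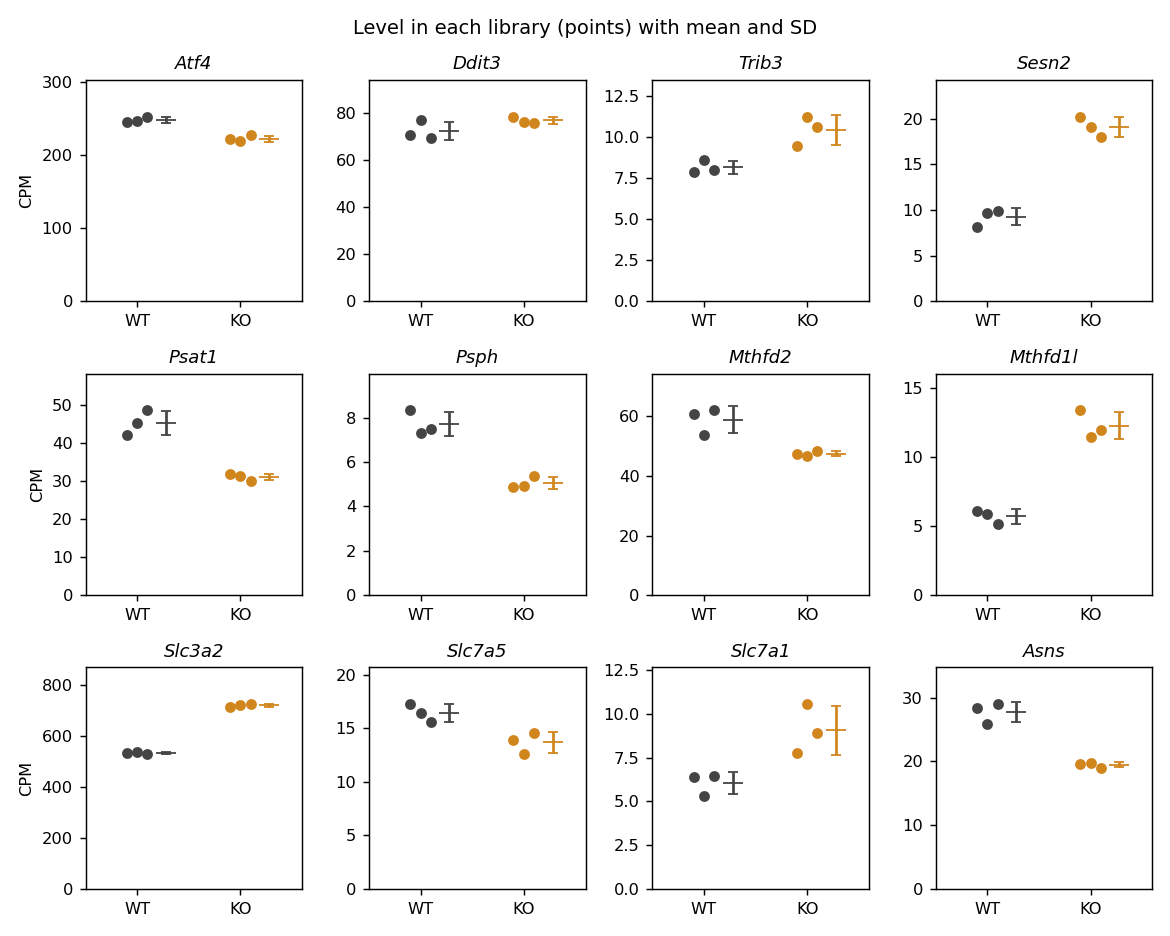
Level of 12 genes in each library in CPM (y axes from 0), WT in grey and KO in orange, with the mean and SD of 3 libraries beside the points. WT and KO points are apart in every panel except that of Ddit3, where WT replicate 2 at 76.8 CPM lies among the KO values.

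Of 8 amino acid transporter genes 5 were higher in KO and 1 was lower, against 31.5% and 29.8% of all genes. With the trend removed 3 were higher and 2 lower, against 28.2% and 27.5% of all genes. The median log2 fold change of the 8 genes went from 0.30 to 0.10. Slc3a2, the heavy chain that carries several light-chain exchangers to the cell surface (ENSMUSG00000010095, chromosome 19, 8706882 to 8723369), had 535, 538 and 531 CPM in WT and 715, 724 and 725 CPM in KO. The libraries within a genotype were nearly equal and the genotypes far apart, a rise of 0.43 (SE 0.0268, edgeR adjusted p = 6.93e-10). Slc7a5, the light chain that exchanges large neutral amino acids such as leucine, went the other way, from 17.3, 16.5 and 15.6 CPM in WT to 13.9, 12.6 and 14.6 CPM in KO. Its fall of 0.26 (edgeR adjusted p = 0.00423) was not called when scaled by library totals (-0.15) and stood at -0.47 with the trend removed. The light chain gene Slc7a6, whose product exchanges cationic for neutral amino acids, rose by 0.61 (edgeR adjusted p = 3.34e-04), from 3.98 ± 0.211 to 6.03 ± 0.740 CPM. The FPKM ratio of Slc3a2 to Slc7a5 was 32.6 to 35.7 in WT and 52.3 to 60.2 in KO.

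Among the transporters that act alone, the cationic carrier gene Slc7a1 had 6.39, 5.31 and 6.46 CPM in WT and 7.76, 10.5 and 8.91 CPM in KO. Its change was 0.58 (edgeR adjusted p = 3.28e-04), but 0.25 and not called with the trend removed. Slc38a2, a sodium-coupled carrier of small neutral amino acids that is induced on amino acid shortage, rose from 10.3 ± 0.753 to 13.3 ± 0.259 CPM (0.37, edgeR adjusted p = 3.79e-04). Slc38a1, its close relative, was at 0.23 (edgeR adjusted p = 0.00526) but, once the trend was removed, at -0.04 without a call. The exchangers of alanine, serine and cysteine, Slc1a4 and Slc1a5, were not called, at -0.12 each, with intervals of -0.62 to 0.39 and -0.45 to 0.20. With the trend removed Slc1a5 was called lower, at -0.37 (edgeR adjusted p = 0.0389).

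Of the 8 enzyme genes of amino acid metabolism, Asns gave the clearest change. Asns, which makes asparagine and is a long-known ATF4 target (ENSMUSG00000029752, chromosome 6, 7675169 to 7693254), had 28.4, 25.9 and 29.0 CPM in WT and 19.6, 19.8 and 19.0 CPM in KO. The groups did not overlap, and Asns fell by 0.51 (SE 0.0585, edgeR adjusted p = 9.53e-07), or -0.42 with the trend removed. Pycr1, a proline synthesis gene, was at -0.53 (edgeR adjusted p = 0.0421). Pck2, which encodes mitochondrial phosphoenolpyruvate carboxykinase, was at 0.24 (edgeR adjusted p = 0.0324). Both lie close to the threshold. Without WT replicate 1 neither was called (-0.51 and 0.21, edgeR adjusted p = 0.0904 and 0.0993). Pycr1 was also not called without WT replicate 2, KO replicate 2 or KO replicate 3 (-0.43, -0.50 and -0.43), nor Pck2 without WT replicate 3 or KO replicate 1 (0.19 and 0.20). Pck2 was -0.04 after removal of the trend.

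The transaminase genes and Aldh18a1 did not pass the test. Gpt2 had 0.36 (interval 0.01 to 0.71, edgeR adjusted p = 0.0661) with groups that did not overlap. It was called without KO replicate 2 (0.44, edgeR adjusted p = 0.0495) and when scaled by library totals (0.48, edgeR adjusted p = 0.0181). Got1 had 0.03 (interval -0.10 to 0.15) and Aldh18a1, which starts proline synthesis, -0.03 (interval -0.28 to 0.22). The genes of the route from homocysteine to cysteine were barely detected. Cth had 2 to 7 counts per library in WT and 3 to 6 in KO. Cbs had 0 counts in each WT library and 2, 0 and 1 counts in KO replicates 1 to 3, so no fold change is given for either gene.

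Levels can be set against each other only per length, and on the deposited FPKM scale the genes spanned a wide range. Slc3a2 was the highest, at 150.4 FPKM in WT and 203 FPKM in KO, followed by Atf4 (104.5 and 93.8 FPKM) and Nupr1 (104.2 and 84.6 FPKM). The WT means of Atf4 and Nupr1 do not differ beyond the spread between libraries. Ddit3 followed at 41.9 and 44.5 FPKM, then Atf5, Ppp1r15a and Mthfd2 at 18.8, 17.6 and 16.7 FPKM in WT. Psat1 and Asns stood at 10.6 and 10.1 FPKM in WT and 7.25 and 7.07 FPKM in KO. Sesn2 and Mthfd1l, with the largest changes, had low WT levels of 2.64 and 1.28 FPKM. Eif2ak4 and Shmt1 were the lowest of the tested genes in WT, at 0.254 and 0.294 FPKM.

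**Figure D3:**
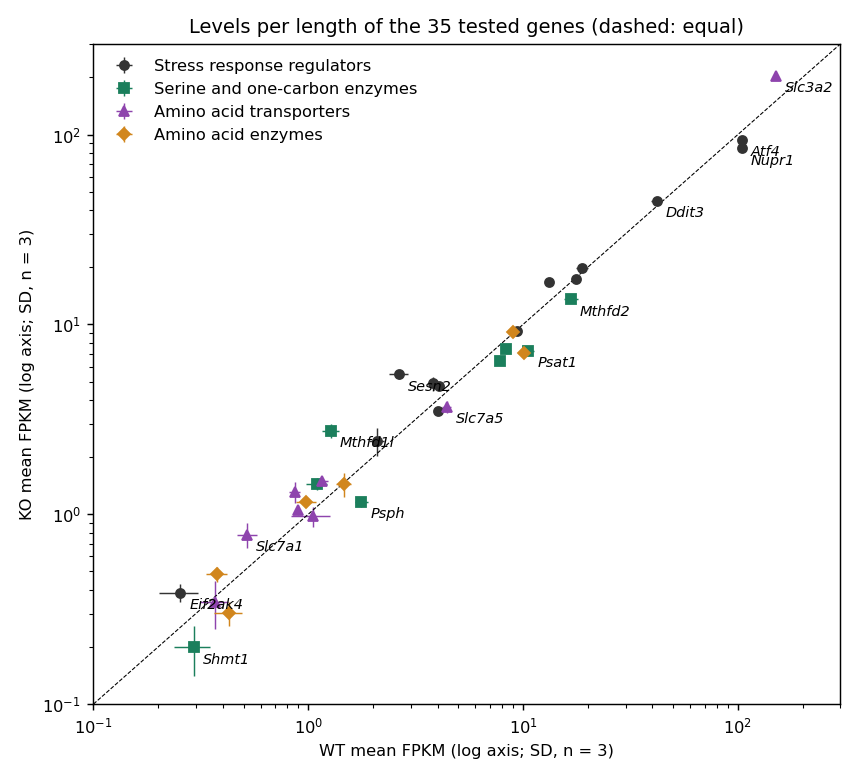
Mean deposited FPKM of the 35 tested genes in WT (x) and KO (y), both on log axes, with the SD of 3 libraries and symbols by role. Most genes lie near the dashed line of equal levels, Sesn2 (2.64 and 5.46 FPKM) and Mthfd1l (1.28 and 2.75 FPKM) above it and Psph (1.77 and 1.16 FPKM) below it.

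Other genes of these pathways, taken from 7 lists of 152 names, were described beside them. Of the 141 tested, 62 were higher and 40 lower, against 31.5% and 29.8% of all genes, with a median log2 fold change of 0.05. Among 17 genes of eIF2, its exchange factor, its kinases and related translation genes, 6 were higher and 4 lower. Eif2ak3, the gene of the kinase PERK that senses misfolded protein in the endoplasmic reticulum, had the largest change, from 1.14 ± 0.123 to 2.95 ± 0.159 CPM (1.38, edgeR adjusted p = 3.88e-06). The eIF2 beta subunit gene Eif2s2 fell by 0.62 and the translation-linked ATPase gene Abcf1 rose by 0.59. Among 21 further stress response genes 9 were higher and 8 lower. Ern1, which encodes IRE1, the kinase and nuclease that splices Xbp1 mRNA, rose from 8.22 ± 0.399 to 17.5 ± 1.47 CPM (1.08, edgeR adjusted p = 4.35e-09). Jdp2, a repressor of the AP-1 and ATF families, fell by 0.94 and Bbc3, the gene of the pro-apoptotic protein PUMA, rose by 0.79.

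The lists nearest to serine and transport followed different courses. Of 21 genes of folate, methionine, glycine and purine metabolism 9 were lower and 5 higher, against 29.8% and 31.5% of all genes. Tyms, thymidylate synthase, fell by 0.81 (edgeR adjusted p = 1.56e-06), while Mtr, methionine synthase, rose by 1.15 (edgeR adjusted p = 2.77e-05). Tyms shares stretches of near-identical sequence with 19 other loci, so its value is uncertain. Of 20 further amino acid transporters 15 were higher and 2 lower, against 31.5% and 29.8% of all genes. Their median log2 fold change was 0.39. Slc1a2, a glutamate carrier, rose by 1.36, the lysosomal carrier gene Slc36a1 by 1.14 and the leucine carrier gene Slc43a2 from 56.9 ± 1.23 to 115 ± 1.15 CPM (1.02, edgeR adjusted p = 1.05e-12). Of these 20 transporters, with the trend removed, 11 were higher and 5 lower, against 28.2% and 27.5% of all genes. Their median was then 0.18. The median length of the 20 genes was 6024 bases, against 3976 over all genes tested.

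Genes that report amino acids to mTORC1 changed in both directions, 12 of 25 higher and 8 lower, but 10 and 9 after removal of the trend. Over all genes tested 31.5% were called higher and 29.8% lower, or 28.2% and 27.5% with the trend removed. The relatives of Sesn2 parted, Sesn1 rising by 1.13 (edgeR adjusted p = 6.37e-07) and Sesn3 falling by 1.34 (edgeR adjusted p = 2.45e-06). Castor2, from a family of arginine sensors, rose by 1.52 from a WT mean of 1.48 CPM. Of 21 genes of glutamine, proline, arginine and branched-chain metabolism 8 were higher and 3 lower, or 8 and 5 with the trend removed. The 3 called lower were the polyamine enzymes Sat1 (497 ± 14.0 to 246 ± 5.34 CPM, -1.01) and Odc1 (-0.64, with 7 near-identical copies that hold 290 counts against 15856) and the branched-chain transaminase Bcat1 (-0.73). Of 16 genes of cysteine and glutathione metabolism 7 were higher and 6 lower, with Nqo1, a quinone reductase, at -0.93, the glutathione peroxidase gene Gpx1 at -0.59 and Gclc, the catalytic subunit of the first step of glutathione synthesis, at 0.58.

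**Figure D4:**
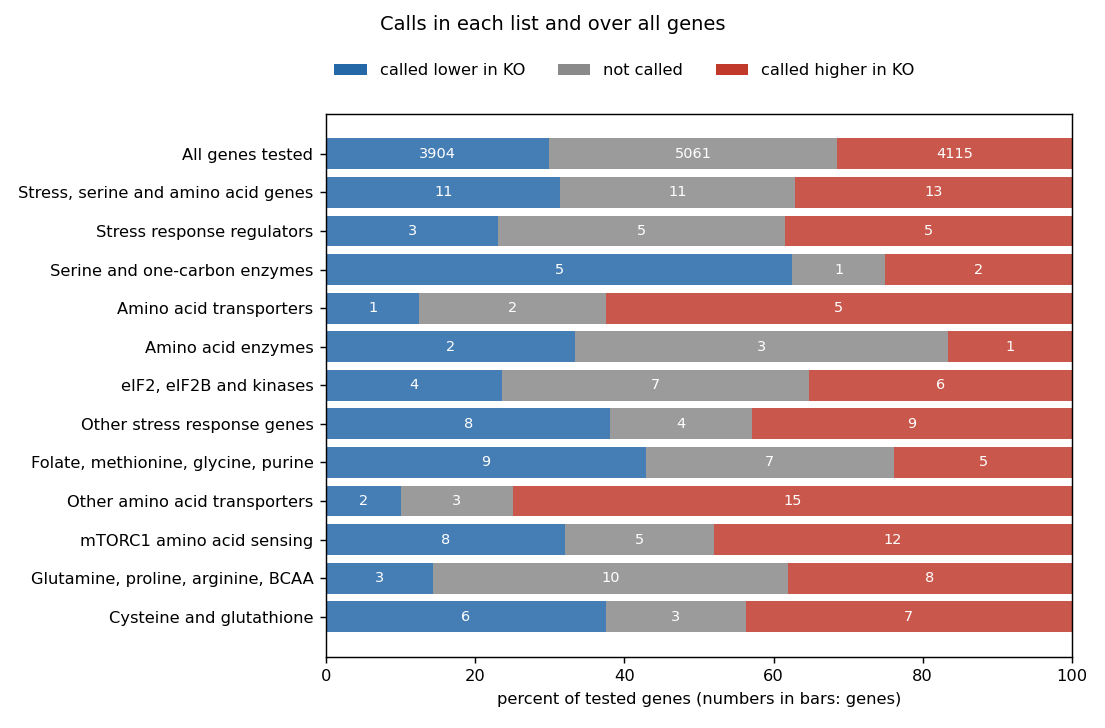
Share of tested genes called lower, not called and called higher in KO for all 13080 genes, the 35 genes described, their roles and 7 lists of neighbouring pathways, with gene numbers inside the bars. Of the serine and one-carbon genes 5 of 8 are lower, and of the transporter groups 5 of 8 and 15 of 20 are higher, with these calls made before any trend was removed.

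The balance between rises and falls depended on how libraries were scaled. Scaling by library totals shifted the log2 median of all genes by 0.11, and of the 35 genes 16 were then higher and 6 lower, while over all genes 39.1% were higher and 22.6% lower. Over all genes the fold change also rose with GC content, from a median of -0.23 in the fifth of genes with the lowest GC content to 0.19 in that with the highest, and with length, from -0.28 to 0.15. With that trend removed, 8 of the 35 genes were higher (22.9%, against 28.2% of all genes) and 12 lower (34.3%, against 27.5%). The 8 serine and one-carbon genes had a median of -0.30 with TMM scaling, -0.18 with library totals and -0.38 with the trend removed, and the 8 transporters 0.30, 0.41 and 0.10. The 13 genes Sesn2, Mthfd1l, Slc3a2, Slc7a6, Slc38a2, Ppp1r15b, Trib3, Psat1, Psph, Phgdh, Mthfd2, Asns and Nupr1 kept their call and direction under every scaling, filter, tool, left-out library, replicate block and trend setting tried, though 5 of them did not pass the test of a change beyond 1.2-fold.

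**Figure D5:**
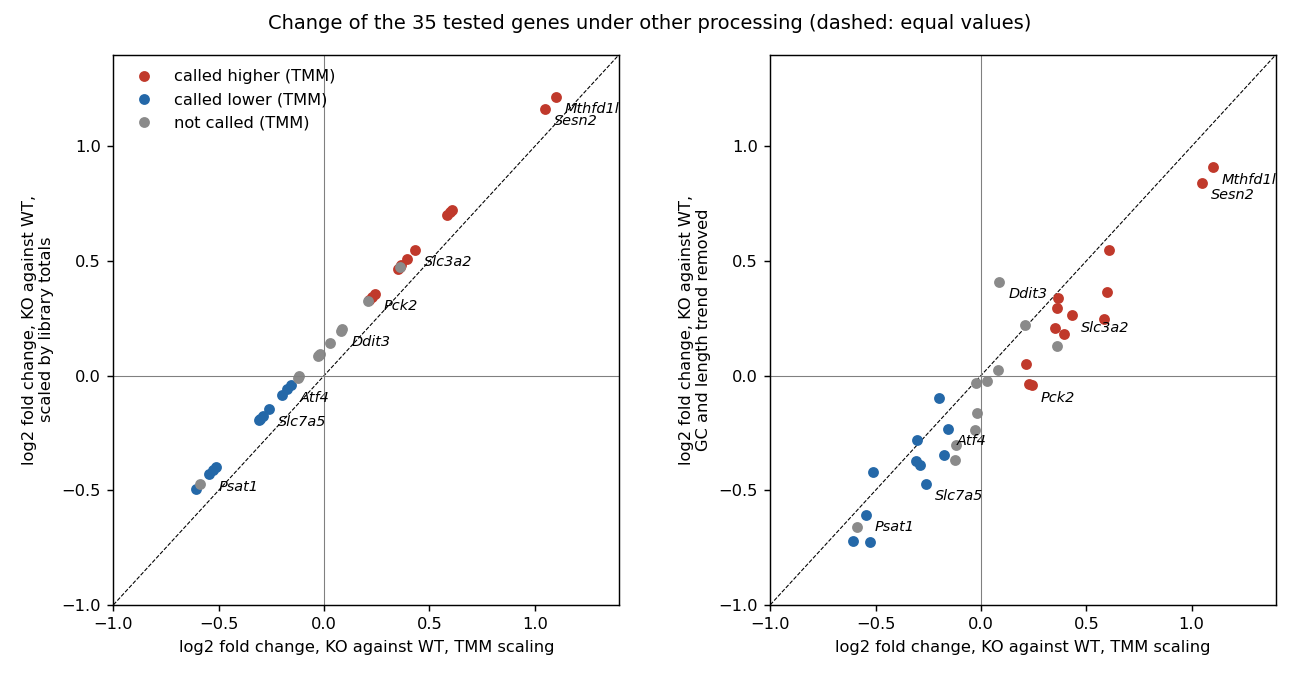
Log2 fold change of the 35 tested genes in KO against WT with TMM scaling (x) against the value with library totals as the scaling (left) and with the GC and length trend removed (right), coloured by the TMM call; dashed lines mark equal values. Library totals raise every point by about the same amount, whereas trend removal lowers most points, takes Pck2 to -0.04 and lifts Ddit3 to 0.41.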

How the data were processed

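RNA-seq of 6 libraries was analysed, 3 WT and 3 KO. The authors deposited raw whole-number counts for each gene and library, per the file headers. The deposited FPKM values are scaled by gene length and library total, per the file headers, and were used only to compare levels between genes. The authors' signal columns (mean normalized counts of a genotype), log2 fold changes and p-values, made with a tool the headers do not name, were used in no result. The submitters' processing notes list Bowtie 0.12.2 and, with no role, mm8 and mm10. Libraries were made from total RNA (NEBNext Ultra kit), per the labels' protocols; no source used here gives read assignment or strand handling. Coordinates of 37 of 38 rows of the genes described were identical to GENCODE vM21 on mm10.

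Counts of all 6 libraries were fitted with edgeR 4.0.16 in R 4.3.3 (default expression filter, TMM scaling, quasi-likelihood test with genotype as the term), which left 13080 genes; p-values were adjusted over all of them. SE is the absolute log2 fold change over the square root of F. The alternatives were library totals, RLE scaling, DESeq2 1.42.0, no filter, each library left out, a replicate block, a glmTreat test beyond 1.2-fold, and removal of a GC and length trend by spline offsets (5 degrees of freedom each; 99.2% of tested genes had a GC value). The scripts were tested on simulated data. Copies were sought with BLAST 2.17.0 (at least 95% identity over 200 bases). Named are all 37 genes, Xbp1 and, from each of the 7 lists, up to 3 called genes with the largest change; 1 of these is not reported here. The genes, lists and rules were chosen with earlier results of these data known. Promoters of Cth, Ppp1r15b, Slc1a5, Slc38a1 and Slc7a5 were not used here.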

Additional observations from a re-analysis of the deposited data

How the results depend on the processing

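Under 14 alternatives the counts of higher and lower calls among the 35 genes, 13 and 11, stayed within 1.5 times except as follows. With library totals the lower count was 6, with 1 lower regulator in place of 3, 0 lower transporters in place of 1, and 2 higher and 1 lower amino acid enzymes in place of 1 and 2. With the GC and length trend removed, with or without the replicate block, the higher count was 8, with 1 higher serine gene, 3 higher and 2 lower transporters and 0 higher amino acid enzymes. Under the test beyond 1.2-fold the counts were 7 and 3, with 3 and 0 regulators, 1 and 2 serine genes, 3 and 0 transporters and 0 and 1 amino acid enzymes; 24 pathway list genes were then lower in place of 40, and 2553 and 2312 of all genes were higher and lower. DESeq2 gave 0 higher and 1 lower amino acid enzymes, and no expression filter 1 lower. Leaving out 1 library gave 12 to 14 higher and 10 to 11 lower genes, with 0 to 2 higher and 1 to 2 lower amino acid enzymes.

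The replicate numbers did not pair the libraries: same-numbered deviations from the group means had correlations of -0.0391, 0.0564 and 0.0375. With a replicate block 13 genes were higher and 10 lower, and the amino acid enzymes had 1 lower call in place of 2, since Pycr1 was at -0.51 (edgeR adjusted p = 0.0514). Direction reversed, without a call, for Slc38a1 (-0.0363) and Pck2 (-0.0428) when the trend was removed, with the replicate block as well (-0.0360 and -0.0392). The cause of these changes was not tested. Depth limits Shmt1, Pycr1, Slc1a4, Eif2ak4, Gpt2, Cth and Cbs most, since each had few counts.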
